A study of Mus musculus with 12 samples.

Results

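Slit-Robo signalling genes were followed in inner hair cells (IHCs) and outer hair cells (OHCs) of the newborn mouse cochlea. The members are the receptor genes Robo1, Robo2, Robo3 and Robo4, the ligand genes Slit1, Slit2 and Slit3, and the genes of the Slit-Robo GTPase-activating proteins, Srgap1, Srgap2 and Srgap3. They were matched by their GENCODE mouse gene names and make up 10 of the 55416 genes counted. The list was drawn up with earlier results of these data known. RNA was sequenced from 12 libraries, 6 of IHC pools and 6 of OHC pools, all sorted from the organ of Corti of wild-type mice at postnatal day 0 (P0). IHCs were sorted as cells with Atoh1-GFP alone, and OHCs as cells that also carried Insm1-GFP-Cre and the tdTomato reporter that this Cre switches on at R26. The WT label therefore covers mice with these alleles. Insm1, whose locus drives the Cre, is a gene of embryonic and newborn OHCs, so the sort itself used an OHC gene, and a recombined reporter was active in the OHC pools. Each library is a pool of cells, and p-values measure the spread between pools.

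Slits are large secreted proteins that bind the immunoglobulin-like domains of Robo receptors, and they are best known for repelling growing axons at the midline of the nervous system. Robo4 is the divergent member of the receptor family and is known from endothelial cells, and Robo3 is known from commissural neurons. Srgaps bind the cytoplasmic part of Robo and link it to the actin cytoskeleton, and heparan sulphate chains on the cell surface hold Slit and Robo together. In the cochlea, neurites of the spiral ganglion grow among supporting cells to reach the IHCs and the OHCs.

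Between 31490204 and 44017309 counts fell on genes in an IHC library, and between 29564827 and 39121988 in an OHC library, and no pair of libraries held identical counts. Levels are given as CPM, counts scaled to a common size after TMM normalization, and only TPM, which also divides by the merged exon length, is used to compare one gene with another. The cell type labels were checked with fixed marker lists, each summed in CPM. The 3 IHC markers summed to 331 to 585.5 in IHCs against 5.57 to 52.8 in OHCs, and the 4 OHC markers to 2.16 to 23.5 in IHCs against 105 to 188 in OHCs. The OHC list holds Insm1, whose locus drives the Cre of the sort, so this sum is not independent of the sort. Bcl11b and Neurod6, not used in the sort, averaged 63.0 and 23.2 CPM in OHCs against 0.393 and 0.0343 CPM in IHCs. One of these 4, Ikzf2, averaged 8.89 ± 7.62 CPM over the IHC libraries and 6.75 ± 8.62 CPM over the OHC libraries (SD, n = 6) and did not pass the test. The 7 markers of all hair cells summed to 5575 to 8699 in IHCs against 4297 to 5488 in OHCs. Of these, Otof (2260 and 479 CPM in IHCs and OHCs) and Gfi1 (190 and 93.4 CPM) were called higher in IHCs. The gap between the sums was mostly that of Otof. Myo6 averaged 2277 CPM in IHCs and 3162 CPM in OHCs (adjusted p = 0.0650 by edgeR's quasi-likelihood test). Among cells outside the sort, the sums were higher in the IHC libraries for supporting cells (240.8 to 596, against 109 to 209 in OHCs) and mesenchyme (44.6 to 70.1, against 6.62 to 27.4), and higher in the OHC libraries for endothelium, described beside Robo4. Of the 5 supporting cell markers, Sox2 and Gjb2 were called higher in IHCs. Most of the gap between the supporting cell sums came from Gjb2, with a mean of 215.6 CPM for IHC libraries against 30.3 for OHC libraries. Sox2 had means of 71.6 against 26.8 CPM, in the same order, and Lfng and Gjb6 were not called. Fgfr3 went the other way, at 16.8 against 73.1 CPM, and was not called (adjusted p = 0.0722 by edgeR's quasi-likelihood test). Of the 7 mesenchymal markers tested, 0 were called by that test, 2 had an unadjusted p under 0.05, and DESeq2 and edgeR's exact test each called 1. The sums overlapped for glia (7.98 to 62.4 and 2.68 to 21.6), pericytes (4.38 to 25.9 and 6.22 to 14.5), macrophages (1.73 to 19.6 and 0.0872 to 5.47), spiral ganglion neurons (0.342 to 16.8 and 0.133 to 6.77) and erythroid cells (0 to 0.0613 and 0 to 3.20). Of the 4 neuronal markers, Ntrk3 alone was tested, and it was called higher in IHCs (adjusted p = 0.00866 by edgeR's quasi-likelihood test). Its mean over IHC libraries was 5.67 CPM, against 0.167 over OHC libraries. Among the untested ones, Tubb3 had the higher mean in IHC libraries, and Nefh and Prph in OHC libraries.

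Robo1 and Robo2 are neighbours on chromosome 16 and are read in opposite directions. In GENCODE vM39 on GRCm39, Robo1 (ENSMUSG00000022883) spans 72105194 to 72844378 on the plus strand and Robo2 (ENSMUSG00000052516) 73688727 to 75244270 on the minus strand, so that 844348 bases separate their 3′ ends. Robo2 is the longer gene, with a span of 1555544 bases and 10 annotated starts of protein-coding transcripts, against 739185 bases and 3 starts for Robo1. RefSeq gives start windows (250 bases before to 50 after a start) for 9 of the 10 members, 11 windows in all, of which 3 belong to Robo2. The Robo2 and Robo1 windows are shown because these receptors share a neighbourhood and differ in their levels below, and each matched GRCm39 exactly and once. Capitals mark matches to 4 motifs, which were the E-box form CAGCTG, its variants reading CAGATG or else reading CACGTG, and the TATA box, spelled TATAAA, searched on both strands and counted separately.
Robo2, first start (chr16:75244132-75244431, minus strand): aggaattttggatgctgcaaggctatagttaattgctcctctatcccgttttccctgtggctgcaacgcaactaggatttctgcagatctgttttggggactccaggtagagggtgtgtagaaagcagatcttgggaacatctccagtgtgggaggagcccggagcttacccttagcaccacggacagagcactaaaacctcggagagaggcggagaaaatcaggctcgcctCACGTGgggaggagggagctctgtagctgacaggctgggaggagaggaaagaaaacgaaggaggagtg
Robo2, intermediate start (chr16:74889609-74889908, minus strand): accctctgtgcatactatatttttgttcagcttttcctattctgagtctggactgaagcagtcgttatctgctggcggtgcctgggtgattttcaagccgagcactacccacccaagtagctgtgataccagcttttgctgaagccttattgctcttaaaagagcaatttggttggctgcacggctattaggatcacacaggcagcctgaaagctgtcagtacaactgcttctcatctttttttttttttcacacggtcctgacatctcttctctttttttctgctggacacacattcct
Robo2, last start (chr16:74208664-74208963, minus strand): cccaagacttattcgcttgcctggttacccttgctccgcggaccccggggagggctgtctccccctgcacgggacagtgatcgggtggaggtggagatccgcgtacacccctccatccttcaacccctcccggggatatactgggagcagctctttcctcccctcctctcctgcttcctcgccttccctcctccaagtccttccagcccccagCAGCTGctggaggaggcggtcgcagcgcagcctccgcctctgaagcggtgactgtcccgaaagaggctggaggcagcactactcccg
Robo1 (chr16:72459787-72460086, plus strand): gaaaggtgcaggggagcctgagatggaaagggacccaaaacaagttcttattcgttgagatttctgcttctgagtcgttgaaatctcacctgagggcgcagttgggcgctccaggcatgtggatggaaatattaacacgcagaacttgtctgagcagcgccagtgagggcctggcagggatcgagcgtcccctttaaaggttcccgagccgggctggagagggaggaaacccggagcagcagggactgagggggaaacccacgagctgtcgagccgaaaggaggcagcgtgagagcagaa

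The first Robo2 start lies 89 bases inside the annotated 5′ end of the gene, and the intermediate and last starts lie 354612 and 1035557 bases inside it. The Robo1 start likewise lies 354843 bases inside that gene. Their composition differs. The last window has a GC content of 65.0% and 17 CG dinucleotides, the first 53.3% and 9, and the intermediate one 45.0% and 5, beside medians of 52.7% and 7 over the 32851 windows of all genes. The last window holds 1 CAGCTG, a motif in 16.3% of all windows, and the first holds 1 CACGTG, found in 7.15%. The Robo1 window, with a GC content of 57.0% and 15 CG dinucleotides, holds none of the 4 motifs, of which CAGATG is found in 17.2% of all windows and TATAAA in 13.6%. The deposited counts sum the reads of a whole gene and do not tell these starts apart.

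Among the receptors, Robo2 was higher in OHCs in every library. IHC replicates 1 to 6 had 14.5, 35.1, 15.8, 20.8, 20.8 and 22.6 CPM of Robo2. OHC replicates 1 to 6 had 301, 280.5, 221, 312, 305 and 211 CPM. The lowest OHC library was 6.02-fold above the highest IHC library. Means were 21.6 ± 7.32 CPM for IHCs and 272 ± 44.6 CPM for OHCs (SD, n = 6 each), a log2 fold change of 3.65 (95% interval 3.12 to 4.19), or 12.6-fold. The adjusted p was 4.76e-08 by the quasi-likelihood test of edgeR, with Benjamini-Hochberg adjustment over the 13269 genes tested. Robo2 ranked 2 of these genes by p-value but not by size, since 121 genes called higher in OHCs had a larger fitted log2 fold change. Its SD in OHCs was 16.4% of its mean, where the median over the tested genes was 51.3%, and in IHCs 33.9% against 62.8%. In these pools, a larger share of cells with Robo2 and more Robo2 RNA per cell cannot be told apart. The paper places Robo2 among OHC-enriched genes that are not specific to hair cells. The part of other cells in the Robo2 values was not tested. Robo2 was called under each of the 19 alternatives tried, with log2 fold changes from 3.55 to 3.84.

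Robo1 was detected in all libraries, and the test did not separate the cell types. IHC replicates 1 to 6 had 144.5, 65.5, 50.3, 59.6, 68.0 and 90.4 CPM, and OHC replicates 57.0, 70.0, 64.4, 80.3, 24.8 and 62.5 CPM. The groups overlapped, with IHC replicate 1 as the highest library and OHC replicate 5 as the lowest. The log2 fold change was -0.41 (95% interval -1.06 to 0.23, adjusted p = 0.467 by edgeR's quasi-likelihood test), an interval that holds no difference and a level in OHCs lower by a little over 1 on the log2 scale. This log2 fold change was -0.17 without IHC replicate 1 and -0.26 without OHC replicate 5. IHC replicate 1 had a TMM-scaled library size of 15289551, against 29975818 to 46384061 for the others, and in TPM, which uses no TMM scaling, it was the lowest IHC library for Robo1 (6.97 TPM) and IHC replicate 6 the highest (18.8 TPM).

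**Figure D1:**
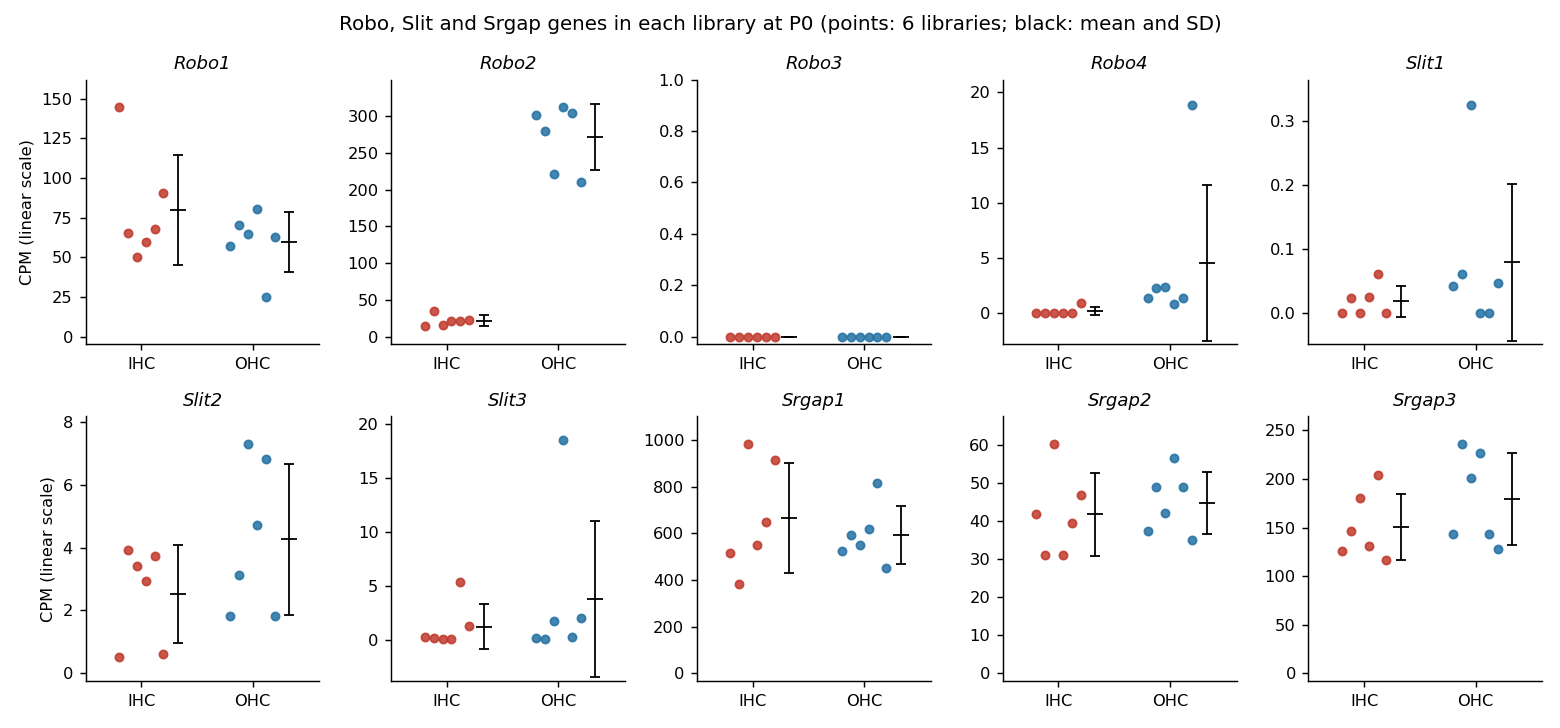
CPM of each member in each of the 12 libraries, on linear axes that differ between genes, with IHCs in red, OHCs in blue, and the mean and SD of 6 libraries in black. Robo2 is the only member with groups that do not overlap (at most 35.1 CPM in IHCs and at least 211 CPM in OHCs), Robo3 is at 0 throughout, and single libraries stand apart in Robo4 and Slit3.

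Per unit of exon length, the receptor makeup of the pools differed mainly through Robo2. Robo1 was at 9.98 ± 4.39 TPM in IHCs and 10.4 ± 3.83 TPM in OHCs (SD, n = 6), and Robo2 at 2.30 ± 1.07 and 34.9 ± 8.38 TPM. Robo2 made up 18.5 ± 7.15% of the summed Robo TPM in IHCs, between 7.13% and 29.0% in single libraries, and 73.5 ± 10.8% in OHCs, between 55.9% and 88.8%. The share of Robo1 was 81.0 ± 7.02% in IHCs and 21.1 ± 6.21% in OHCs. Within each library, the ratio of Robo2 to Robo1 TPM ran from 0.0768 to 0.409 in IHCs and from 2.58 to 9.38 in OHCs, so that Robo1 was the higher receptor in 6 of 6 IHC libraries and Robo2 in 6 of 6 OHC libraries. The highest ratio was in OHC replicate 5, which also had the lowest Robo1. The 4 Robo genes summed to 12.4 ± 5.39 TPM in IHCs and 47.7 ± 9.80 TPM in OHCs. With the length of the longest transcript in place of merged exons, the share of Robo2 was 23.2 ± 8.50% in IHCs and 80.1 ± 7.59% in OHCs.

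**Figure D2:**
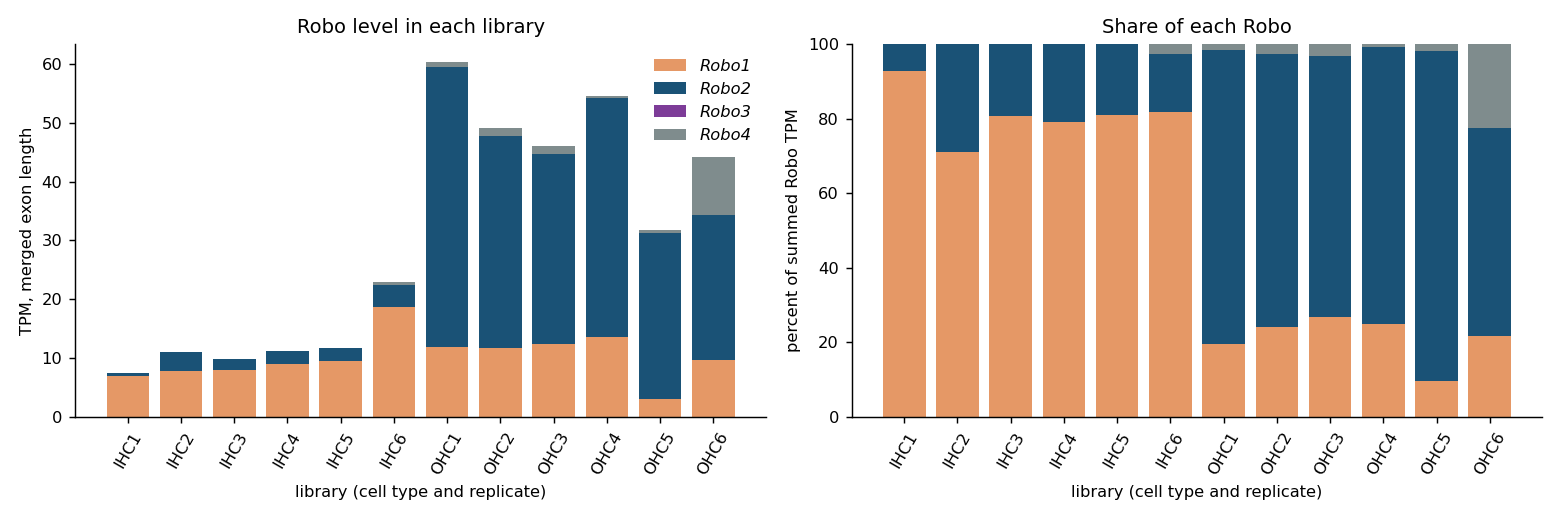
Left, TPM (merged exon length) of the Robo genes stacked for each library, and right, the same values as a percent of the summed Robo TPM. Robo1 takes most of each IHC bar, Robo2 takes 55.9% or more of each OHC bar, and Robo4 is visible mainly in OHC replicate 6, at 22.4%.

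Robo3 had 0 counts in all 12 libraries. A limit of 3 counts corresponds to between 0.0647 and 0.196 CPM per library, so any Robo3 below that was not detectable at this depth, with counting error only considered. Robo3 (ENSMUSG00000032128) occupies 37326965 to 37344737 of chromosome 9, on the minus strand, and its 3′ end is 553 bases from that of Robo4 (ENSMUSG00000032125, 37313193 to 37326411 on the plus strand).

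Robo4 was detected at a low level and unevenly. It had 0 counts in IHC replicates 1 to 5 and 32 counts, or 0.872 CPM, in IHC replicate 6. OHC replicates 1 to 6 had 1.36, 2.26, 2.31, 0.756, 1.37 and 18.9 CPM, the last from 807 counts. Robo4 was thus present in 6 of 6 OHC libraries and 1 of 6 IHC libraries, but the groups overlapped, because OHC replicate 4 lay below IHC replicate 6. The fitted log2 fold change of 4.89 (95% interval 1.62 to 8.15) did not pass the threshold (adjusted p = 0.0681 by edgeR's quasi-likelihood test). OHC replicates 1 to 5 averaged 1.61 ± 0.662 CPM. Without IHC replicate 6, where every remaining IHC library had 0 counts, the mean of OHCs was at least 43.6-fold above the mean limit of 3 counts per IHC library, and the gene was called (adjusted p = 0.00396). Without both replicate 6 libraries the bound was 15.6-fold (adjusted p = 0.00443), and without OHC replicate 6 alone the log2 fold change was 3.41 (adjusted p = 0.203), all by the same test. DESeq2 and edgeR's exact test on the 12 libraries called it (adjusted p = 0.0123 and 0.0281).

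Its start window is shown because it has fewer CG dinucleotides, 2, than the windows of Robo1 and Robo2, while its GC content of 50.3% lies inside their range. It holds 1 CAGCTG, in capitals.
Robo4 (chr9:37313018-37313317, plus strand): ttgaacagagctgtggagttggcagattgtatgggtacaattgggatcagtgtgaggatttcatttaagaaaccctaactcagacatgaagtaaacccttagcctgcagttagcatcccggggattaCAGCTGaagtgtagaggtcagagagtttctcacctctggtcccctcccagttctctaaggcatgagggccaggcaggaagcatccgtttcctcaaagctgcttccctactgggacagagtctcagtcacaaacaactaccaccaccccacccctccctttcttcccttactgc

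As a sum, endothelial markers were also higher in the OHC libraries. Of 10 endothelial markers 8 were tested, of which 6 were called higher in OHCs, beside 2.44% of all tested genes. Emcn and Egfl7 were not called (adjusted p = 0.108 and 0.939 by edgeR's quasi-likelihood test). Egfl7 averaged 3.1 CPM in IHCs and 3.6 CPM in OHCs. Cldn5, a tight junction gene, and Esam, an adhesion gene, had 0 counts in all IHC libraries. The 10 genes summed to 0.523 to 13.0 CPM in IHCs against 17.0 to 235 CPM in OHCs. OHC replicates 1 to 6 had sums of 70.9, 17.0, 235, 83.9, 31.8 and 73.4 CPM, so that the highest sum was in OHC replicate 3 and the highest Robo4 in OHC replicate 6. In IHC replicate 6, the IHC library with Robo4, the sum was 2.51 CPM, within the range of the other IHC libraries. The part of these cells in the Robo4 values was not tested.

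**Figure D3:**
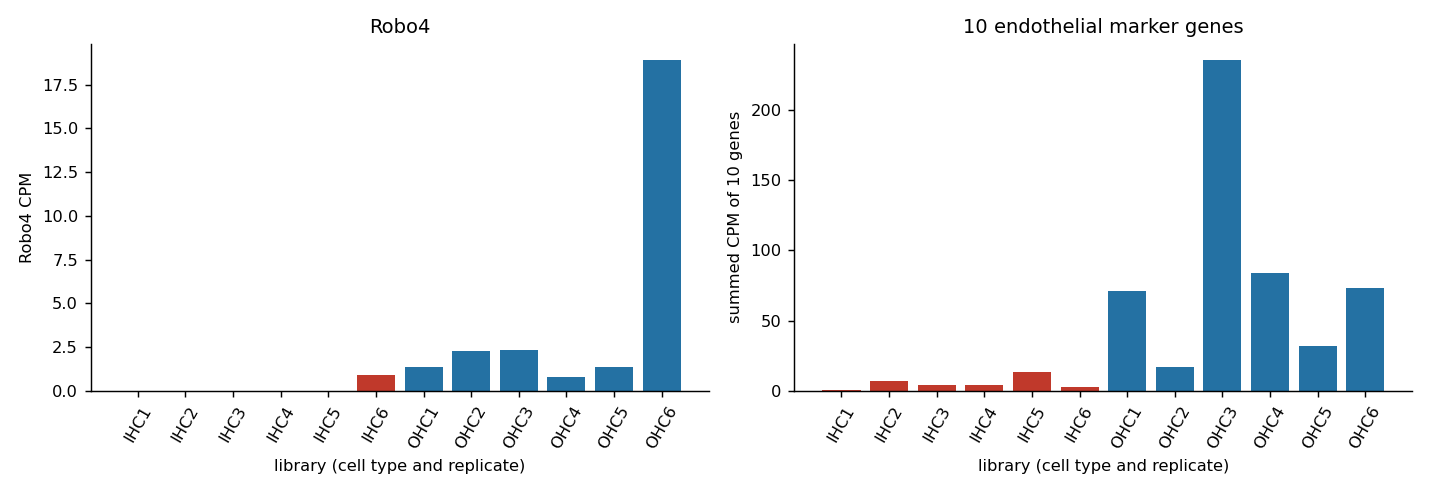
Robo4 CPM (left) and the summed CPM of 10 endothelial marker genes (right) in each library, with IHCs in red and OHCs in blue. Both are higher in most OHC libraries, but Robo4 peaks in OHC replicate 6 (18.9 CPM) and the marker sum in OHC replicate 3 (235 CPM).

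The ligand genes were low in most libraries of both cell types, and Slit1 was near the lower limit of detection throughout. Slit1 (ENSMUSG00000025020, chromosome 19 from 41588676 to 41732268) had at most 2 counts in an IHC library and at most 12 in an OHC library, which is 0.326 CPM in OHC replicate 3. Slit2 (ENSMUSG00000031558, chromosome 5 from 48140480 to 48465075) had 0.523, 3.93, 3.40, 2.92, 3.74 and 0.627 CPM in IHC replicates 1 to 6. OHC replicates 1 to 6 had 1.83, 3.14, 7.30, 4.71, 6.81 and 1.83 CPM. The groups overlapped, and the log2 fold change of 0.75 (95% interval -0.93 to 2.44, adjusted p = 0.626 by edgeR's quasi-likelihood test) did not separate them, with an interval wide enough to hold a difference of more than 2 on the log2 scale.

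Slit3 (ENSMUSG00000056427, chromosome 11 from 35011789 to 35602786) was high in single libraries. IHC replicates 1 to 6 had 0.327, 0.195, 0.0785, 0.101, 5.39 and 1.34 CPM, and OHC replicates 1 to 6 had 0.173, 0.0915, 1.76, 18.5, 0.300 and 2.01 CPM. IHC replicate 5 and OHC replicate 4 stood far above the others of their cell type. The summed mesenchymal markers were at 53.8 CPM in IHC replicate 5 and 17.8 CPM in OHC replicate 4, in both cases inside the range of the other libraries of that cell type. The part of mesenchymal cells in the Slit3 values was not tested. Slit1 and Slit3, with Robo3, were the 3 members that the filter on low counts left untested, and with no filter on low counts in the same test the adjusted p was 0.439 for Slit1 and 0.421 for Slit3. The 3 Slit genes summed to 0.460 ± 0.464 TPM in IHCs and 1.33 ± 1.77 TPM in OHCs (SD, n = 6), far below the summed Robo genes on the same scale.

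Of the intracellular partners, Srgap1 and Srgap3 were abundant in both cell types, and Srgap2 was lower (6.84 TPM in IHCs and 8.75 TPM in OHCs). None of the 3 genes passed the test. Srgap1 (ENSMUSG00000020121, chromosome 10 from 121616814 to 121883220) had 383 to 983 CPM in IHC libraries (median 599.8) and 451 to 817 CPM in OHC libraries (median 571), with a log2 fold change of -0.17 (95% interval -0.64 to 0.30, adjusted p = 0.706 by edgeR's quasi-likelihood test). The 2 highest libraries were IHC replicates 3 and 6, and IHC replicate 2 was the lowest. Srgap1 averaged 193 ± 125 TPM in IHCs and 193 ± 28.5 TPM in OHCs (SD, n = 6). Single libraries ran from 49.1 to 373.5 TPM in IHCs and from 136 to 214 TPM in OHCs. By these means it ranked 174 of the 23163 genes with a count in IHCs and 205 of 25009 in OHCs. Srgap2 (ENSMUSG00000026425, chromosome 1 from 131212989 to 131455275) had 31.0 to 60.3 CPM in IHC libraries (median 40.7) and 35.0 to 56.6 CPM in OHC libraries (median 45.6), with a log2 fold change of 0.10 (95% interval -0.49 to 0.70, adjusted p = 0.869 by the same test). Srgap3 (ENSMUSG00000030257, chromosome 6 from 112694932 to 112924262) had 117 to 204 CPM in IHC libraries (median 138.5) and 128 to 236 CPM in OHC libraries (median 172), with a log2 fold change of 0.25 (95% interval -0.21 to 0.72, adjusted p = 0.548 by the same test). The intervals of Srgap1, Srgap2 and Srgap3 leave out a change of 1 or more on the log2 scale in either direction. Srgap1 made up 79.3 ± 5.51% of the summed Srgap TPM in IHCs and 75.4 ± 4.81% in OHCs, Srgap3 17.7 ± 5.32% and 21.2 ± 4.59%, and Srgap2 3.04 ± 0.463% and 3.40 ± 0.310%. Srgap3 shares 338 exonic bases with the antisense lncRNA gene Gm44081, counted up to 1096 times in a library, and Srgap1 shares 131 bases with Gm48804 on its own strand, counted up to 1084 times.

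Ordered by mean TPM, the members in OHCs ran from Srgap1 (193) over Srgap3 (55.3), Robo2 (34.9), Robo1 (10.4), Srgap2 (8.75), Robo4 (2.45), Slit3 (0.902) and Slit2 (0.396) to Slit1 (0.0298) and Robo3 (0). In this order the library ranges of neighbours were apart between Srgap1 and Srgap3, between Robo2 and Robo1 and between Slit2 and Slit1, and overlapped elsewhere. In IHCs the order was Srgap1 (193), Srgap3 (37.5), Robo1 (9.98), Srgap2 (6.84), Robo2 (2.30), Slit3 (0.255), Slit2 (0.1995), Robo4 (0.103), Slit1 (0.00512) and Robo3 (0). There the ranges of all neighbours overlapped, although Srgap1 exceeded Srgap3, and Srgap3 exceeded Robo1, within each of the 6 libraries. By this merged exon length, Robo2 and Robo4 each stood 2 places higher in OHCs than in IHCs, and no other member moved as far. Robo2 has 23765 merged exon bases and 9022 in its longest transcript, against 10035 and 8937 for Srgap3. Places can therefore change with the length used, and the order by longest transcript is not given. The OHC means of Robo4 and Slit3 were raised by single libraries, replicate 6 (9.93 TPM) and replicate 4 (4.39 TPM).

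Of the 10 members, 7 passed the filter and 1 of these, Robo2, was called higher in OHCs, where 2.44% of all 13269 tested genes were called in that direction. None of the 7 was called higher in IHCs, where the share over all tested genes was 3.81%. The count was also 0 at an unadjusted p under 0.05 by edgeR, and 0 by DESeq2 and the exact test. Of the 7, 1 had groups without overlap, against 4.60% of all tested genes. With so few members tested, these counts are read as Robo2 alone and not as a shift of the family. The median log2 fold change of the 7 was 0.25, beside -0.04 over all tested genes, with 5 values above 0 and 2 below.

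The wider pathway was described with a list of 47 genes in 3 classes, of which 42 were tested. Of these, 2 were called higher in OHCs and 4 higher in IHCs, and 36 were not called, beside 6.26% of all tested genes called in either direction. Their median log2 fold change was 0.04. The 5 genes left untested were the co-receptor genes Sdc1 and Gpc2, the netrin receptor gene Dcc, the netrin gene Ntn1 and the chemokine receptor gene Cxcr4.

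Of 13 genes of heparan sulphate co-receptors and Slit-binding surface proteins, 11 were tested, 1 was higher in OHCs and 1 in IHCs, and the median was -0.54. Both called genes encode subunits of the enzyme complex that extends heparan sulphate chains, and they moved in opposite directions. Ext1 had 23.1 to 58.3 CPM in IHC libraries (median 28.6) and 59.7 to 125 CPM in OHC libraries (median 71.8), with no overlap and a log2 fold change of 1.39 (95% interval 0.74 to 2.03, adjusted p = 0.00979 by edgeR's quasi-likelihood test). Ext2 had 52.2 to 102 CPM in 5 IHC libraries, 2838 CPM in IHC replicate 5, and 11.9 to 49.0 CPM in OHC libraries. Its log2 fold change of -4.04 (adjusted p = 0.0105) was set by that library and was -1.21 without it (adjusted p = 0.0475), both by the same test. Dag1, the dystroglycan gene, was the highest of the class at 266 ± 115 TPM in IHCs and 235 ± 47.2 TPM in OHCs (SD, n = 6), with a log2 fold change of -0.53 (adjusted p = 0.117 by the same test), which was called in 1 of 12 fits that each left out a library (adjusted p = 0.0384 without IHC replicate 4).

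Of 10 Robo partners, other ligands and cross-talking receptors, 7 were tested and 1 was called. Cdh2, the N-cadherin gene, had 164 to 306 CPM in IHC libraries (median 234) and 72.6 to 122 CPM in OHC libraries (median 101), with no overlap and a log2 fold change of -1.21 (95% interval -1.66 to -0.76, adjusted p = 0.00151 by edgeR's quasi-likelihood test). N-cadherin is one of the adhesion proteins that Robo is known to act on through Abl and Cables. In TPM it was the highest of its class in IHCs (66.1 ± 30.4), and the netrin receptor gene Unc5b was the highest in OHCs (116 ± 20.9 TPM, against 55.9 ± 30.5 in IHCs). The log2 fold change of Unc5b was 0.58 (adjusted p = 0.350 by the same test), and without IHC replicate 1, which at 366.5 CPM was the highest of the 12 libraries, it was 0.98 (adjusted p = 0.0457). In TPM, which uses no TMM scaling, IHC libraries reached at most 94.7 for Unc5b and OHC libraries 152.

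All 24 cytoplasmic effectors and regulators were tested, with 1 called higher in OHCs and 2 in IHCs, and the median was 0.26. Sos2, a guanine nucleotide exchange factor gene, had 55.6 to 154.5 CPM in IHC libraries and 40.1 to 61.3 CPM in OHC libraries, and 5 of 6 IHC libraries exceeded all OHC libraries, with IHC replicate 1 the exception. Its log2 fold change was -1.23 (95% interval -1.80 to -0.65, adjusted p = 0.0105 by edgeR's quasi-likelihood test). Arhgap39, the mouse counterpart of the Drosophila Robo effector Vilse, had 51.4 to 355 CPM in IHCs and 21.2 to 59.6 CPM in OHCs, and IHC replicate 3 was the library at 355 CPM. Its log2 fold change of -1.65 (adjusted p = 0.0186) was -1.10 without that library and no longer passed (adjusted p = 0.0630), both by the same test. Ndfip2, an adaptor gene of Nedd4-family ubiquitin ligases, had 11.3 to 21.4 CPM in IHCs and 23.0 to 50.1 CPM in OHCs without overlap, and its log2 fold change of 1.22 passed narrowly (adjusted p = 0.0485) and did not pass in 15 of 19 alternatives. The highest TPM of the class belonged to Nedd4 in IHCs (307 ± 134, against 380 ± 58.3 in OHCs) and to Evl, an Ena/VASP actin regulator gene, in OHCs (387.5 ± 125, against 238 ± 75.3 in IHCs). Nedd4 had a log2 fold change of 0.07, which was -0.012 without IHC replicate 1, and Evl one of 0.31, neither of them called (adjusted p = 0.840 and 0.331 by the same test).

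**Figure D4:**
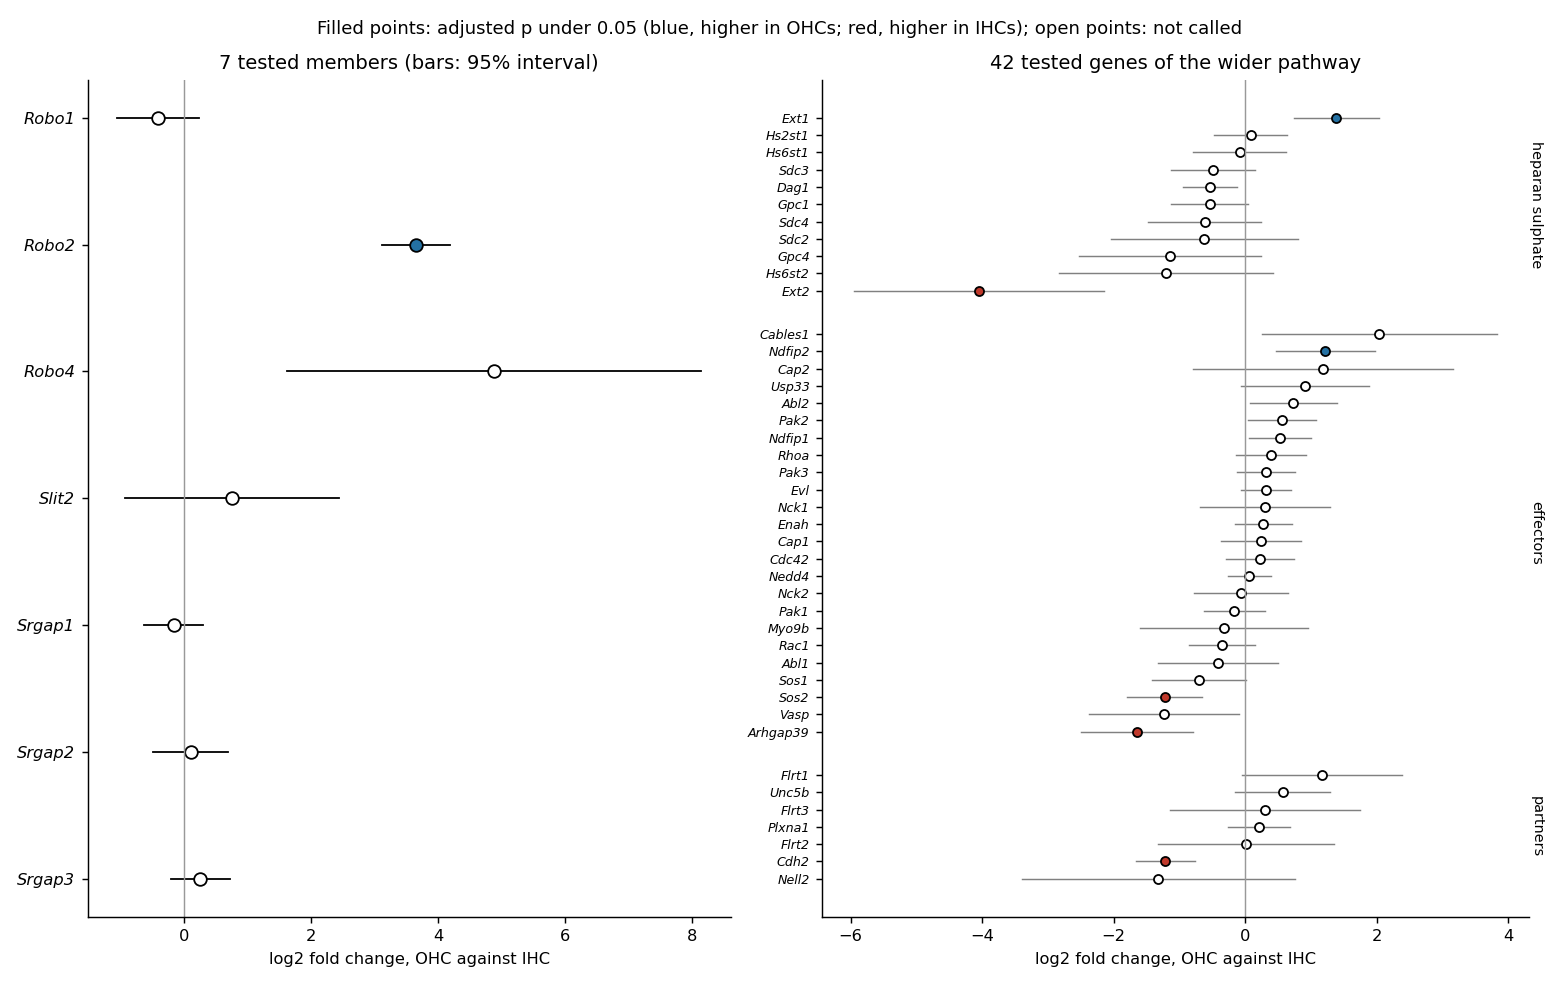
Log2 fold changes of OHCs against IHCs with 95% intervals from edgeR, for the 7 tested members (left) and the 42 tested genes of the wider pathway by class (right), with called genes filled in blue (higher in OHCs) or red (higher in IHCs). Robo2 is the only filled member, the interval of Robo4 spans 1.62 to 8.15, and 6 of the 42 pathway genes are filled.

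The genes most like Robo2 over the 12 libraries, by Pearson's r of log2 CPM among the 13269 tested genes, were Cdh1 (0.988), Neurod6 (0.977), Vcan (0.974), Insm2 (0.969) and Bcl11b (0.968). In each of them the OHC libraries lay above all IHC libraries, so these values rest on the gap between the cell types, which the libraries also share with the sort. Within the 6 OHC libraries r ranged from -0.344 for Insm2 to 0.6415 for Vcan, and within the 6 IHC libraries from -0.0325 for Neurod6 to 0.7925 for Cdh1, with Insm2 at 0 counts there. Cdh1, the E-cadherin gene, averaged 27.8 ± 12.2 CPM over IHC libraries and 878.5 ± 116 CPM over OHC libraries (SD, n = 6), a log2 fold change of 4.98 (adjusted p = 1.04e-08 by edgeR's quasi-likelihood test). Vcan, which encodes the proteoglycan versican, was at 4.20 ± 2.63 and 137.5 ± 43.9 CPM. The transcription factor gene Bcl11b was at 0.393 ± 0.401 and 63.0 ± 20.3 CPM. Neurod6 and Insm2, also transcription factor genes, had at most 2 and 0 counts in an IHC library, and 23.2 ± 11.4 and 5.26 ± 2.14 CPM in OHCs. Unlike Neurod6, Insm2 and Bcl11b, Robo2 kept 222 counts or more in every IHC library.

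**Figure D5:**
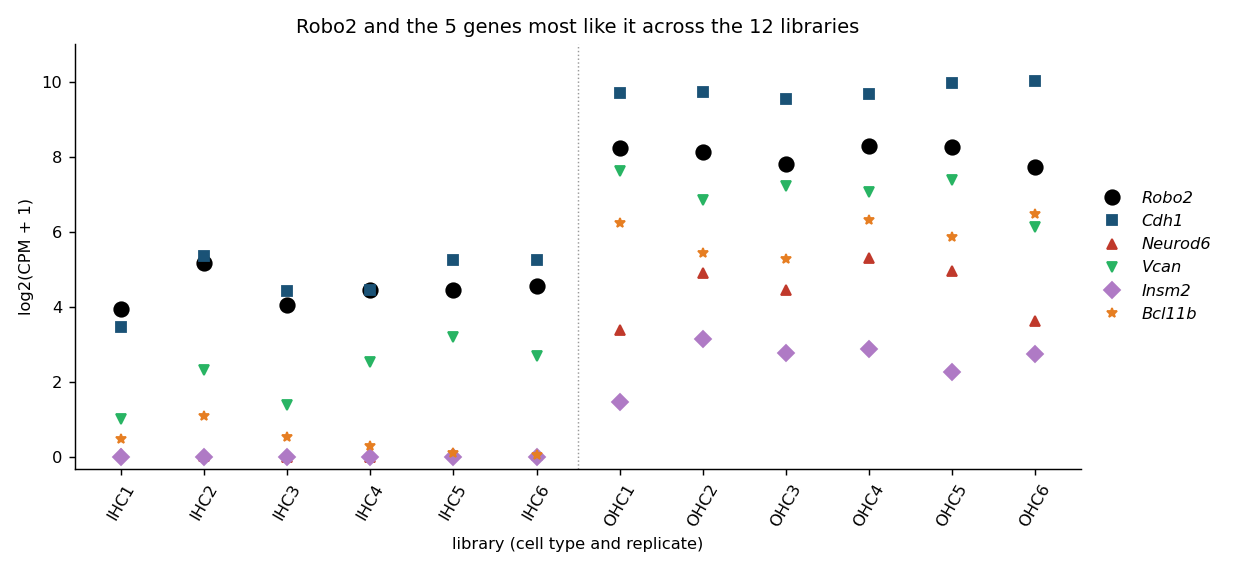
Robo2 (black) and the 5 genes with the highest Pearson's r to it, as log2 of CPM plus 1 in each library, with a dotted line between IHC and OHC libraries. All 6 genes step up between the cell types, and within a cell type they do not all peak in the same library.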

How the data were processed

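Bulk RNA-seq was analysed from 12 libraries, grouped by their labels into 6 IHC and 6 OHC pools. Each deposited file holds unnormalized read counts of 55416 genes and 5 summary lines, made by the authors. The summary lines, 24.2% to 46.1% of all lines' counts, were left out. By the labels, ribosomal RNA was depleted and randomly primed, amplified cDNA was sequenced in paired reads. The submitters' processing notes name Trimmomatic, STAR, HTSeq and GRCm39 (mm39), and the methods name 2-pass alignment, the intersection-nonempty mode and GENCODE vM27. Tool versions and the strand setting are not given in the sources used here, so members that share exons with an antisense gene may lose reads or hold some of its reads. Reads carry no molecular identifiers, so limits from counts cover counting error only.

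The counts were fitted with edgeR 4.0.16 in R 4.3.3 (filterByExpr with cell type as group, at least 10 counts and 15 in total, TMM, estimateDisp, glmQLFit and glmQLFTest), with cell type as the only term. Benjamini-Hochberg adjustment covered all tested genes, and calls needed an adjusted p under 0.05. DESeq2 1.42.0, edgeR's exact test, RLE size factors, other filters, a replicate block and fits without single libraries were alternatives. The steps were tested on simulated counts. Tables and figures were made in Python 3.11.15 with pandas 2.3.3 and matplotlib 3.10.9. Log2 CPM for correlations used a prior count of 2. TPM, loci and exon overlaps used GENCODE vM39 on GRCm39. It covers 98.8% of the gene identifiers but may hold exons that the counting annotation lacked. Start windows came from RefSeq and were matched to GRCm39. A floor of 3 counts per library was used for bounds.

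The genes named are the members, every pathway gene past the threshold, the pathway genes with the highest mean TPM of each class, the 5 genes most correlated with Robo2, and markers of a cell type that moves with a member. The members and lists were chosen with earlier results of these data known. Same-numbered IHC and OHC libraries did not deviate together (r from -0.0313 to 0.0184, 0 of 6 pairs over 0.1).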

Additional observations from a re-analysis of the deposited data

Results flagged for a closer look

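Single libraries stood apart in 10 of the 45 sets of 6 libraries examined for the named genes. Sets were judged by Dixon's ratio of the gap to the range, with a critical value of 0.625. For normally distributed values, chance alone gives about 1 in 20. The values here were linear CPM and the sets share the same 12 libraries, so 10 of 45 cannot be set against that rate. Among the members, Robo4 was far from the others in IHC replicate 6 (0.872 CPM, the other IHC libraries being at 0) and in OHC replicate 6 (18.9 CPM), Slit1 in OHC replicate 3 (0.326 CPM), and Slit3 in IHC replicate 5 (5.39 CPM) and OHC replicate 4 (18.5 CPM). In the wider pathway these were Ext1 in IHC replicate 2 (58.3 CPM), Ext2 in IHC replicate 5 (2838 CPM), Evl in OHC replicate 1 (539 CPM) and Arhgap39 in IHC replicate 3 (355 CPM). Of the genes most like Robo2, Bcl11b stood apart in IHC replicate 2 (1.15 CPM), which was also the IHC library with the most Robo2 (35.1 CPM). Neither Robo1 nor Robo2, nor any Srgap gene, had such a library in either cell type. The causes were not tested.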

How the results depend on the processing

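Robo2 was called in all alternatives, and Robo1, Slit2, Srgap1, Srgap2 and Srgap3 in none. The count of members called was 1 and rose to 2, with Robo4, under DESeq2, under edgeR's exact test, under the replicate block (2 members, Robo4 at an adjusted p of 0.00366), and without both replicate 6 libraries, an alternative chosen after seeing the data. With each library left out in turn it ran from 1 to 2, the higher value without IHC replicate 6. The replicate block called 391 genes higher in OHCs, 512 higher in IHCs and 5 pathway genes. In deviations from the cell type means, no IHC library correlated best with the OHC library of its own number. Of all tested genes, 324 were called higher in OHCs and 506 higher in IHCs. These counts were 1590 and 1339 with DESeq2, 918 and 893 with no filter on low counts, 221 and 464 with at least 10 counts in every library, and 204 and 330 without both replicate 6 libraries. The exact test called 519 and 751. With single libraries left out they ran from 225 to 402 and from 369 to 551. The log2 fold change of Nedd4 (0.07) ran from -0.012, without IHC replicate 1, to 0.12, without IHC replicate 3. DESeq2 gave no adjusted p for Ext2, and Robo4 was not tested with at least 10 counts in every library. The causes were not tested. Counts of Slit1, Slit3, Robo3 and Robo4 were at or under 3 in some libraries, so depth limits what can be read from them. Slit2 had 8 counts or more in every library.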
